A study of Rattus norvegicus with 12 samples.

Results

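The genes described are the feeding peptides Npy, Cartpt and Pomc and the receptors Npy1r, Npy2r, Npy5r, Mc3r and Mc4r. They were chosen by name and not by a threshold on measured values, but with earlier results of these data known. A probe set, a group of short probes on the array that report 1 transcript, was taken for a gene where the platform annotation gave that gene's symbol and no other. Of the 8 genes, 7 had at least 1 such probe set, among 14217 genes that had one, and they held 8 of the 31042 probe sets tested. Npy5r had 2 probe sets, and the brighter one over all 12 arrays was taken as its main one. No probe set carried the symbol Mc3r alone in the annotation used here, so Mc3r was not analysed.

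The arrays measured RNA from the hypothalamic arcuate nucleus (ARC) of male Wistar rats at 3 months of age, with 6 control and 6 recuperated animals and 1 animal per array. Control animals were born to control dams, whereas recuperated animals were born to dams fed a diet with 8% protein and were moved to control dams on postnatal day 3. All animals then ate standard chow. By the study's methods the recuperated litters were also smaller and held males alone, so the diet in the womb and the size of the litter cannot be told apart. The ARC was cut from stained sections by laser capture and its RNA was amplified before labelling. Each value is a log2 expression level, and a difference of 1 is a doubling.

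Within the ARC, neurons that make neuropeptide Y drive feeding, and neurons that make POMC and, for many of them, the CART peptides restrain it. Neuropeptide Y acts through the Y1, Y2 and Y5 receptors, of which Y2 also sits on the NPY neurons themselves and holds back release. The POMC precursor is cut into melanocortins, which lower food intake through the MC3 and MC4 receptors. The comparison asked whether this peptide system was set differently in adults whose growth was held back before birth and then sped up.

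No peptide or receptor gene passed a test of the difference between recuperated and control animals. By limma, which borrows information on the spread across all probe sets, 0 of the 8 probe sets passed an adjusted p under 0.05. On the whole array 0 of 31042 probe sets (0%) did so. An unadjusted p under 0.05 was found for 1071 of the 31042, a smaller share than the 0.05 that this threshold passes with no difference. The methods' t-test also called 0 after adjustment. At the study's threshold of 1.3-fold with an unadjusted p under 0.05, 0 of the 8 were higher and 0 were lower, against 1.2% of all probe sets higher and 1.27% lower. All 8 probe sets had a negative log2 difference, recuperated minus control, whereas 56.6% of all probe sets were negative. The median over the 7 main probe sets was -0.20, and the median over all probe sets was -0.03. Without recuperated array 4, 6 of the 8 were negative and the median of the main ones was -0.08.

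Recuperated array 4 stood apart and bears on most values below. Its median correlation with the other arrays was 0.966, the lowest of the 12, where correlations between arrays ran from 0.959 to 0.988. By this measure it was not alone, as recuperated array 5 was at 0.968. The highest correlation of array 5 with any array, 0.974, was below the 0.977 of array 4. Of the 7 main probe sets, 6 had their lowest value on recuperated array 4, against 13.2% of all probe sets. Each member's difference is therefore given with and without it. The labels gave no reason to remove it. Array medians lay between 6.21 and 6.30, but the deposited values had been normalized between arrays by quantiles, which brings medians together. The medians therefore do not tell whether an array is sound.

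The stretches of 250 bases before the annotated transcription starts of the 3 peptide genes are shown as a description of their promoters. Whether any element in them bears on the array values was not tested. They come from RefSeq on GRCr8, each read 5′ to 3′ on the strand of its gene. Npy lies at chr4:80211861-80212110 on the plus strand, Cartpt at chr2:32991236-32991485 on the minus strand and Pomc at chr6:32659103-32659352 on the plus strand. Capitals mark matches to 3 elements that were searched on both strands. These were the GC box GGGCGG, the cyclic AMP response element TGACGTCA and the TATA box TATAAA.
Npy: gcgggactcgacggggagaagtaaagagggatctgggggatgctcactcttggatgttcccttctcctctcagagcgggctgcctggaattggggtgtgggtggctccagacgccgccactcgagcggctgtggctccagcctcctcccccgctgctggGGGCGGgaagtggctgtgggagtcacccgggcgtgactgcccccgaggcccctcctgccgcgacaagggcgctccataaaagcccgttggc
Cartpt: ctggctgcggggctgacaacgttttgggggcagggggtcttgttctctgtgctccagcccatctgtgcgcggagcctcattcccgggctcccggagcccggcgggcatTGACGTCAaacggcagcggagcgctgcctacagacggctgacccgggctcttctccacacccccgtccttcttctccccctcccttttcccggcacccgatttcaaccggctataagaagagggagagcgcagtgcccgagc
Pomc: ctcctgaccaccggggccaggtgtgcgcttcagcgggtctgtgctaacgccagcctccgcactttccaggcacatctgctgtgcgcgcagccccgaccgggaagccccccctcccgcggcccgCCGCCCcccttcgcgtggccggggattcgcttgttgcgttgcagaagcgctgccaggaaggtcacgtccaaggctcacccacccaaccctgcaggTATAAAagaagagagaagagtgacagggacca

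The GC box began 91 bases before the Npy start and, on the other strand, 127 bases before the Pomc start, and 30.5% of 33469 RefSeq windows of the same length held one. The complete cyclic AMP response element, to which CREB binds, began 142 bases before the Cartpt start and occurred in 1.59% of windows. The TATA box began 32 bases before the Pomc start and occurred in 12.9% of windows. Only exact matches were counted. Near their starts the Cartpt window holds tataag and the Npy window cataaa, which are close to TATAAA, so Pomc is not set apart by this search. None of the 8 windows, that of Mc3r included, held the STAT site TTCNNNGAA, the FOXO site GTAAACA or the E-box CACGTG, which 7.67%, 3.21% and 5.59% of windows held. A match is a description of letters and not a binding site, and a window without one says nothing about the factor.

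Npy, the gene of the neuropeptide Y that drives feeding, had the widest spread of the members. On control arrays 1 to 6 its probe set 1387154_at read 11.47, 11.13, 10.88, 11.49, 11.19 and 11.54, and on recuperated arrays 1 to 6 it read 11.75, 10.88, 11.19, 7.19, 10.85 and 10.60. Recuperated array 1 thus lay above every control array, arrays 2 and 3 lay within the control range, arrays 5 and 6 lay just below it, and array 4 lay far below all others. The mean of the control arrays was 11.28 ± 0.26 (SD, n = 6), and that of the recuperated arrays was 10.41 ± 1.63 (SD, n = 6). The log2 difference was -0.89 (standard error 0.58, 95% confidence interval -2.13 to 0.34), with an adjusted p = 0.999 from limma and p = 0.130 from an exact two-sided permutation test over the 924 arrangements of the arrays. In tissue RNA of this kind, fewer NPY cells in the captured piece and less Npy RNA per cell cannot be told apart.

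The Npy result rested on recuperated array 4. There Npy was 4.00 below the median of the other 11 arrays, which is 16.0-fold, and only 3 of 31042 probe sets (0.00966%) were further below. These 3, named after their values were seen, were Dct, at 3.83 against 7.83 to 9.94 on the other arrays, Crabp1, at 7.02 against 10.87 to 11.82, and Galp, which encodes galanin-like peptide, at 3.76 against 7.10 to 8.63. Without this array the recuperated mean of Npy was 11.05 ± 0.44 (SD, n = 5) and the difference was -0.25 (95% confidence interval -0.69 to 0.20; exact permutation test, p = 0.262). That interval runs from 1.61-fold lower to 1.15-fold higher in recuperated animals. The spread within groups fell with it, from percentile 99.8 of all probe sets to percentile 65.3.

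Marker lists of several cell types lay outside the range of the other arrays on the same array. The 4 measured genes of the ventromedial nucleus, the nucleus beside the ARC, averaged 3.57 above the array median on recuperated array 4 and 0.49 to 1.74 on the others, and all 4 were at their highest there. Its defining gene Nr5a1, named after its values were seen, read 8.88 there and 3.36 to 5.97 elsewhere, and it exceeded the median of no other array. The 8 genes of tanycytes and ependyma, the cells lining the third ventricle, averaged -0.23 there and 1.13 to 1.74 on the others, with 7 of the 8 at their lowest. Of the other lists, the oligodendrocyte genes averaged 3.94 there against 3.31 to 3.77 on the other arrays and the endothelial genes 0.49 against -0.10 to 0.42, both above all others. The microglial genes averaged 0.42 against 0.57 to 1.25, with 5 of 6 at their lowest, and the pituitary genes -1.91 against -1.55 to -0.15. The 11 neuronal genes averaged 4.76, within the 4.41 to 4.80 of the other arrays, but 6 of them were at their highest there and 2 at their lowest. Those 2 were Gad1, which makes the transmitter GABA, at 11.04 against 12.19 to 12.63, and Slc32a1, its vesicular transporter, at 8.50 against 10.05 to 10.88. The part of these shifts in the Npy value was not tested.

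Cartpt, which encodes the precursor of the appetite-restraining CART peptides, was the steadiest of the members apart from that array. Its probe set 1368585_at read 12.87, 12.95, 12.93, 12.85, 12.84 and 12.97 on the control arrays and 12.91, 12.99, 12.91, 11.13, 12.79 and 12.99 on the recuperated arrays. Recuperated array 4 was 1.78 below the median of the others, or 3.43-fold, and the other 11 arrays lay between 12.79 and 12.99 with the groups intermixed. The means were 12.90 ± 0.06 (SD, n = 6) and 12.62 ± 0.73 (SD, n = 6), a difference of -0.30 (standard error 0.27, 95% confidence interval -0.88 to 0.28; adjusted p = 0.999 from limma). The exact permutation test gave p = 0.5.

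Without recuperated array 4 the Cartpt means were level, with a difference of -0.001 and a 95% confidence interval of -0.22 to 0.22, or 0.859-fold to 1.16-fold. The signal was among the brightest, at a median percentile of 99.85 within an array, where differences can be compressed. It was not at the end of the scale, as the highest value of any probe set was 14.44. Of the 257 probe sets with a mean of at least 12, 30 (11.7%) varied less within groups over the 11 arrays than Cartpt, whose SD was 0.067, and of the 30785 others 23 (0.0747%) did. Such small SDs were thus found mostly among the brightest probe sets, and what part of the steadiness of Cartpt comes from the scale was not tested. On recuperated array 4, 0.448% of all probe sets were further below the other arrays than Cartpt.

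Pomc, which encodes the melanocortin precursor, gave a low signal on every array. Probe set 1384612_at read between 5.58 and 6.13 with a median of 5.89 in control arrays, and between 5.53 and 6.17 in recuperated arrays. The groups overlapped over nearly their whole range, and Pomc exceeded the median of its array on 0 of 12 arrays. Its difference was -0.13 (standard error 0.15, 95% confidence interval -0.45 to 0.20; exact permutation test, p = 0.407). Recuperated array 4 held the lowest value but only just, at 5.53 against 5.54 on recuperated array 6, and without it the difference was -0.08.

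A low level on 1 probe set is not a call that the transcript is absent, because binding varies from one probe set to the next. As a description of low signal, the probe sets of 15 genes of other organs such as albumin and insulin had mean levels from 2.07 to 7.07 on these arrays, with a median of 4.21. The highest was the muscle actin gene Acta1, and the next was Pnlip at 5.65. Levels of different probe sets cannot be ranked against each other, so this range gives no call of absence for any member.

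**Figure D1:**
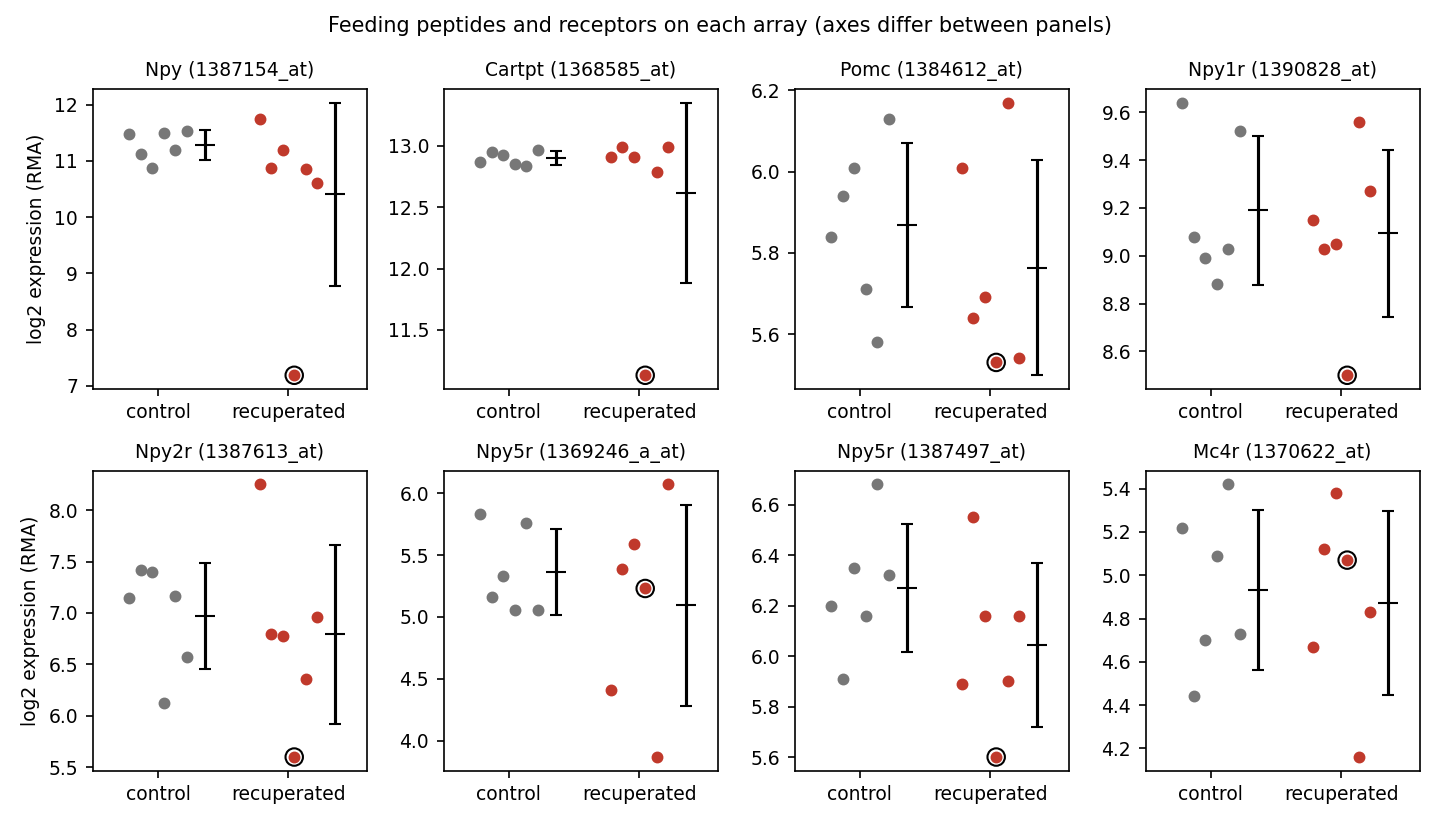
Log2 expression (RMA) of each member probe set on 6 control (grey) and 6 recuperated (red) arrays, in order of array number, with the group mean and SD drawn as a bar beside the points. Recuperated array 4 is ringed and has the lowest Npy (7.19) and Cartpt (11.13), and each panel has its own axis, which does not start at 0.

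Npy1r, the gene of the Y1 receptor through which neuropeptide Y stimulates feeding, exceeded the median of its array in all 12 cases. Probe set 1390828_at ran from 8.88 to 9.64 in control arrays and from 8.50 to 9.56 in recuperated arrays. The groups overlapped, with recuperated array 4 alone below the control range. The means were 9.19 ± 0.31 (SD, n = 6) and 9.09 ± 0.35 (SD, n = 6), and the difference was -0.12 (standard error 0.19, 95% confidence interval -0.52 to 0.29; exact permutation test, p = 0.589). Without recuperated array 4 it was 0.004, with an interval of -0.37 to 0.38.

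Npy2r, the gene of the inhibitory Y2 receptor, varied most among the receptors. Probe set 1387613_at read 7.15, 7.42, 7.40, 6.13, 7.17 and 6.57 on the control arrays and 8.25, 6.80, 6.78, 5.60, 6.36 and 6.96 on the recuperated arrays. The extremes of all 12 both fell in the recuperated group, with array 1 highest and array 4 lowest, and the other 4 recuperated arrays lay inside the control range. The means were 6.97 ± 0.51 (SD, n = 6) and 6.79 ± 0.87 (SD, n = 6), with a difference of -0.20 (standard error 0.36, 95% confidence interval -0.97 to 0.57; exact permutation test, p = 0.645).

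The direction for Npy2r depended on those extremes. It was 0.04 without recuperated array 4 and -0.50 without recuperated array 1. Unlike that of Npy, the spread of Npy2r did not come from 1 array, since its within-group SD lay at percentile 96.2 of all probe sets with recuperated array 4 and at percentile 93.4 without it.

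Npy5r, the gene of the Y5 receptor, also a feeding receptor for neuropeptide Y, was low on both of its probe sets. The main one, 1387497_at, had a median of 6.26 in control arrays, with a range of 5.91 to 6.68, and a median of 6.03 in recuperated arrays, with a range of 5.60 to 6.55. Recuperated arrays 1 and 5, at 5.89 and 5.90, lay just below the lowest control value, array 4 lay further below it, and the others overlapped with the controls. The difference was -0.25 (standard error 0.16, 95% confidence interval -0.60 to 0.11; exact permutation test, p = 0.167), and it was -0.16 without recuperated array 4.

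This was the member that came nearest to a test threshold under any alternative. Leaving out recuperated array 2, its highest recuperated value, gave -0.34 with an unadjusted p = 0.0476 from limma, short of 1.3-fold. The other probe set, 1369246_a_at, read 5.06 to 5.83 in control arrays and 3.87 to 6.07 in recuperated arrays, and gave -0.29 (standard error 0.31; exact permutation test, p = 0.437), or -0.32 without recuperated array 4. Its lowest value was on recuperated array 5 and not on array 4, so the 2 probe sets shared the sign of the difference and not the array that was lowest.

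Mc4r, the gene of the melanocortin receptor whose loss causes obesity, gave a low signal and exceeded the array's median in 0 of 12 cases. Probe set 1370622_at ran from 4.44 to 5.42 with a median of 4.91 in control arrays and from 4.16 to 5.38 with a median of 4.95 in recuperated arrays. The groups overlapped almost entirely. The difference was -0.08 (standard error 0.21, 95% confidence interval -0.53 to 0.36; exact permutation test, p = 0.717), and it was -0.12 without recuperated array 4. It turned to 0.01 without control array 5 and to 0.05 without recuperated array 5. Mc4r was the main probe set that was not lowest on recuperated array 4, where it was 0.24 above the median of the others.

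**Figure D2:**
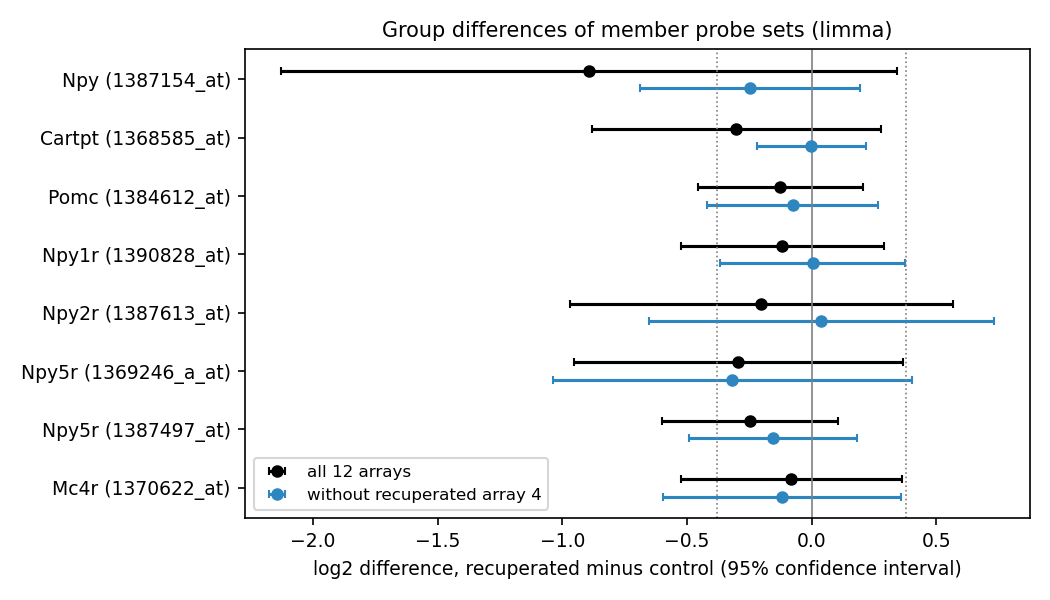
Log2 difference, recuperated minus control, of the 8 member probe sets from limma, with bars for the 95% confidence interval, over all 12 arrays (black) and without recuperated array 4 (blue). All 16 intervals cross 0, and dotted lines mark 1.3-fold in each direction.

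The plot of deviations shows how the members moved from array to array. Distances between members within an array give the same picture and do not depend on the subtraction of array medians. The deposited values had still been normalized between arrays by quantiles. Npy minus Cartpt averaged -1.62 ± 0.27 (SD, n = 6) over the control arrays and -2.21 ± 0.94 (SD, n = 6) over the recuperated ones, and it was -3.94 on recuperated array 4 against -2.39 to -1.16 on all others. As the Cartpt signal is among the brightest, where differences can be compressed, this distance does not show how the amounts of the RNAs themselves changed. Without recuperated array 4 the recuperated mean of this distance was -1.86 ± 0.46 (SD, n = 5).

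Distances between receptors also varied. Npy1r and Npy5r are neighbours on chromosome 16 in RefSeq, with 0 genes of that table between them and on opposite strands. Npy1r minus Npy5r averaged 2.92 ± 0.41 (SD, n = 6) over the control arrays and 3.05 ± 0.40 (SD, n = 6) over the recuperated ones. On recuperated array 4 it was 2.90, inside the 2.35 to 3.66 of the other arrays. Npy1r minus Npy2r varied more, at 2.22 ± 0.59 (SD, n = 6) over the control and 2.30 ± 0.79 (SD, n = 6) over the recuperated arrays, with its lowest value of 0.90 on recuperated array 1.

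**Figure D3:**
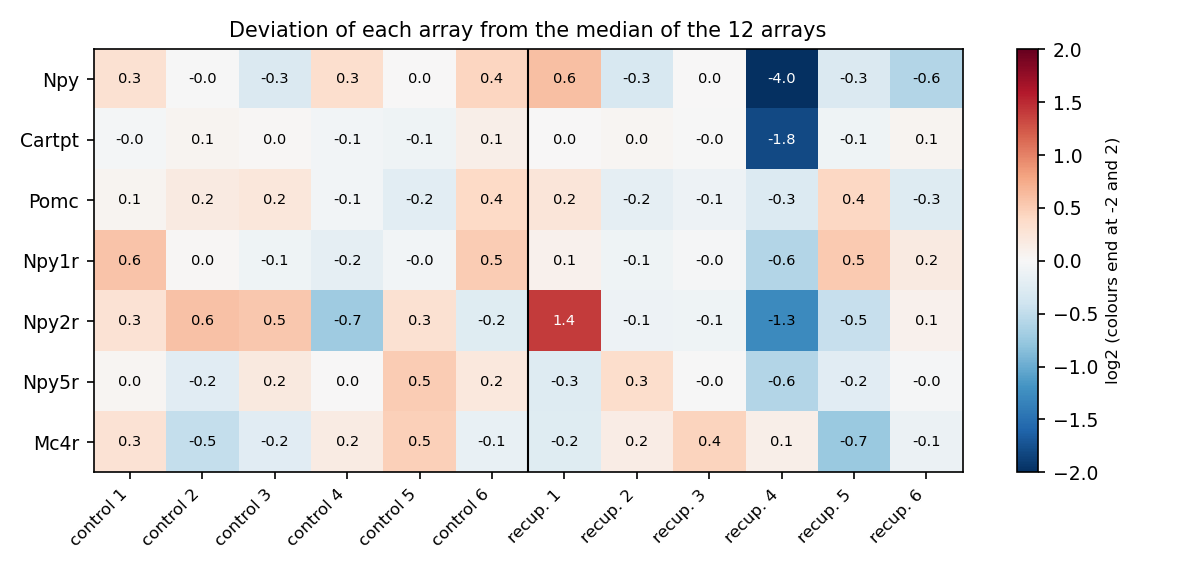
Deviation, in log2 units, of each of the 7 main probe sets on each array from its median over the 12 arrays, after subtraction of array medians, with control arrays left and recuperated arrays right of the line. The darkest cells are Npy and Cartpt on recuperated array 4, Npy2r is high on recuperated array 1, and the colour scale ends at -2 and 2 while printed numbers do not.

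The members were then compared with each other across arrays, on deviations from the group means. Of the 21 pairs, 2 passed adjustment over the pairs with Pearson's r and 0 with Spearman's rho. Npy and Cartpt had r = 0.948 (permutation test, p = 0.00119, adjusted p = 0.025) and rho = 0.678 (permutation test, p = 0.0185, adjusted p = 0.2). Without recuperated array 4 r was -0.04, and without the 2 arrays farthest from the median of Npy, recuperated arrays 1 and 4, it was -0.103, both with deviations taken anew from the means of the remaining arrays. With the deviations from the original means, which still hold array 4, the latter was 0.614. The relation of Npy and Cartpt thus rested on that array.

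Pomc and Mc4r ran against each other, with r = -0.771 (permutation test, p = 0.00327, adjusted p = 0.0343) and rho = -0.678 (permutation test, p = 0.019, adjusted p = 0.2). Both signals are low. It was -0.77 without recuperated array 4 (permutation test, p = 0.00694, adjusted p = 0.146) and -0.642 without the 2 arrays farthest from the median of Pomc, with deviations taken anew. When each array was left out in turn, which was added after seeing the data, r lay between -0.831 and -0.638. The weakest value came without recuperated array 5, which held the highest Pomc and the lowest Mc4r (permutation test, p = 0.0364, adjusted p = 0.161). Over the 11 arrays, 0 of the 21 pairs passed adjustment by either measure, and 7 pairs changed sign.

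**Figure D4:**
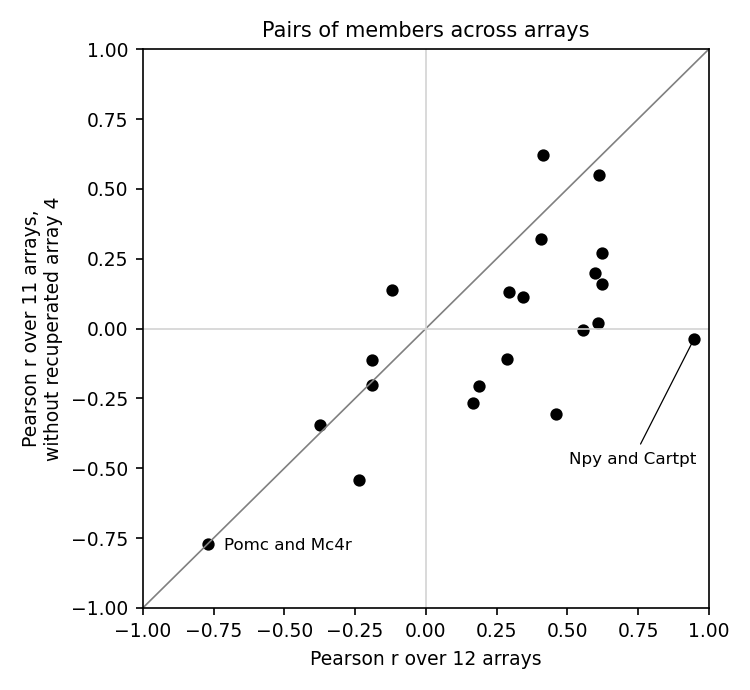
Pearson r of the deviations from group means for each of the 21 pairs of members, over 12 arrays (x axis) and over the 11 arrays without recuperated array 4 (y axis), with a line of equality. The pair of Npy and Cartpt moved from 0.948 to -0.04, and that of Pomc and Mc4r stayed at -0.77.

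Genes whose deviations were most like those of the peptides were sought among 9042 genes whose signal exceeded the array's median on 6 or more arrays. These r values are the highest of many and serve as a description. Over 12 arrays the genes most like Npy were Tac3, which encodes neurokinin B, at r = 0.981, Th, the dopamine synthesis enzyme, at 0.979, and the calcium-binding protein gene Pvalb at 0.968. For Cartpt they were the transcription factor gene Tbx3 at 0.993, Cd63 at 0.985 and the glutathione peroxidase gene Gpx1 at 0.979. All 6 were at their lowest on recuperated array 4, with Tbx3 at 7.18 against 10.02 to 10.33 elsewhere and Pvalb at 5.87 against 7.81 to 9.19.

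Over the 11 arrays without it, none of these 6 genes was among the 3 nearest. The genes most like Npy were then the neuronal tubulin gene Tubb3 at r = 0.966, the G protein subunit gene Gnb2 at 0.962 and Os9, a gene of protein quality control in the endoplasmic reticulum, at 0.955. Those most like Cartpt were Phf23 at 0.902, Adamtsl1 at 0.872 and Ndufa9, a subunit of mitochondrial complex I, at 0.868. Pomc kept Jag2, a Notch ligand gene, and Cwf19l2 among its nearest 3 in both sets, at 0.893 and 0.899 over 12 arrays and 0.916 and 0.891 over 11. The nearest gene over 12 and over 11 arrays was Fbln2 (r = 0.839) and Narf (0.908) for Npy1r, Igsf10 (0.889) and Paqr9 (0.965) for Npy2r, Bpnt1 (0.909) and Tifab (0.952) for Npy5r, and Gmpr2 (0.896) and Cavin3 (0.898) for Mc4r.

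Around the members, 95 further genes of the pathway were listed in 7 groups, and 79 of them had a probe set. At 1.3-fold with an unadjusted p under 0.05, 1 of 79 was higher (1.27%) and 1 was lower (1.27%), which is close to the share of all probe sets. By limma, 0 passed adjustment over all probe sets. The lists were chosen with earlier results of these data known, so these counts, and the p-values of the genes named below, are a description and not an independent test. Of the 79, 53 had a negative difference, and their median was -0.08. The share of negative values over all probe sets was 56.6%.

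The higher gene was Htr2a, the serotonin 2A receptor, with a log2 difference of 1.17 (standard error 0.37; exact permutation test, p = 0.0303), which was 1.02 without recuperated array 4. The lower gene was Slc6a3, the dopamine transporter, at -0.71 (standard error 0.32), which the exact permutation test put at p = 0.0606. It was -0.40 without recuperated array 4, where it read 4.23 against 5.77 to 7.06. Its p also exceeded the threshold with array medians left in place, with array quality weights, and on leaving out recuperated array 1 or 2 or any of control arrays 2, 3, 5 and 6.

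Among the other genes of the NPY family, 5 of 7 were measured and 0 passed, with a median of -0.09. Those with the smallest p were Pyy, which encodes peptide YY, at -0.17 (standard error 0.16), and Dpp4, a peptidase that trims neuropeptide Y and peptide YY, at -0.18 (standard error 0.17), or -0.19 and -0.17 without recuperated array 4. All 5 gave signals below the median of every array.

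Of the melanocortin system, 8 of 12 genes were measured and 0 passed, with a median of -0.08, and Agrp, like Mc3r, was not analysed for want of a probe set with its symbol alone. Prcp, a peptidase that breaks down α-MSH, averaged 6.99 ± 0.13 (SD, n = 6) over the control arrays and 6.64 ± 0.47 (SD, n = 6) over the recuperated ones, a difference of -0.37 (standard error 0.19; exact permutation test, p = 0.108). Its unadjusted p from limma was 0.0806 over all arrays. Without recuperated array 1 the difference was -0.55, past 1.3-fold, with an unadjusted p = 0.000445 and an adjusted p = 0.954 from limma. Leaving out that array also raised the lower calls over all probe sets from 395 to 622. With array quality weights the Prcp difference was -0.44 (unadjusted p = 0.0203, adjusted p = 0.937 from limma), and without recuperated array 4 it was -0.30. Atrnl1, an attractin-like gene, had 0.29 (standard error 0.22) over all arrays and 0.13 without recuperated array 4.

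Peptide precursors are cut and finished by enzymes and granule proteins, of which 12 of 13 were measured and 0 passed, with a median of -0.04. All 12 exceeded the median on 6 or more arrays. The smallest p belonged to the protease genes Furin, at -0.32 (standard error 0.22), and Ctsl, at -0.18 (standard error 0.14). Without recuperated array 4 these were -0.24 and -0.08. Without recuperated array 1 Furin was -0.48 with an unadjusted p = 0.0276 and an adjusted p = 0.954 from limma. On recuperated array 4 the mean level of the list, at 4.52 above the array median, lay inside the 4.49 to 4.77 of the other arrays, and 3 of the 12 genes were at their lowest there and 1 at its highest.

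Of 15 transcription factors of ARC neurons, 8 were measured and 0 passed, with a median of -0.12 over all arrays and -0.04 without recuperated array 4, and 7 of the 8 were at their lowest there. Their mean was 1.09 above the median on that array and 2.05 to 2.23 on the others. Tbx3 had a difference of -0.59 (standard error 0.43), which was -0.10 without it. Isl1, a factor needed for Pomc and Npy neurons, had 0.26 (standard error 0.20), and without recuperated array 4 it had 0.44 with an unadjusted p = 0.00927 from limma, without passing adjustment.

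Hormone and transmitter receptors comprised 16 genes, all measured, with a median of -0.14. On recuperated array 4 their mean was 1.34 above the array median against 0.77 to 1.21 elsewhere. There 5 were at their highest and 4 at their lowest. Apart from Htr2a, the smallest p was that of Socs3, the leptin-induced brake on receptor signalling that was listed with them, at -0.50 (exact permutation test, p = 0.0844), with a signal below the median of every array. It was -0.44 without recuperated array 4. Its unadjusted p from limma was 0.0194, 0.0346 and 0.0309 without control array 1, control array 5 and recuperated array 1. None of these 3 values passed adjustment, and in every other limma fit the p of Socs3 exceeded the threshold. The largest shift went the other way, to -0.30 without control array 4 (unadjusted p = 0.145 from limma). In the signalling downstream of the receptors, 19 of 20 genes were measured and 0 passed, with a median of -0.04. The mean of these genes was 2.06 above the array median on recuperated array 4 against 1.565 to 1.89 elsewhere. There 6 were at their highest and 2 at their lowest. Kcnj13, a potassium channel gene that melanocortin signalling acts on, had -0.37 (standard error 0.19) and the adenylyl cyclase gene Adcy2 had -0.21 (standard error 0.17), or -0.16 without recuperated array 4. The value of Kcnj13 without recuperated array 4 was -0.49, with an unadjusted p = 0.0148 from limma. Its unadjusted p from limma was also under the threshold without control array 2 (0.0278) and with array quality weights (0.0266). None of these passed adjustment. The p of Kcnj13 exceeded the threshold in every other limma fit. Its difference shrank to -0.28 without control array 6 (unadjusted p = 0.174 from limma) and to -0.29 without recuperated array 3 (unadjusted p = 0.169 from limma).

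Other transmitters of the ARC had the lowest median of the lists, at -0.31, and it was -0.04 without recuperated array 4. Of 12, 11 were measured and 7 were at their lowest on that array, where their mean was 1.46 above the array median against 2.69 to 3.11 elsewhere, while 3 were at their highest. Th read 6.84 there against 9.67 to 10.10, and its group difference was -0.61 (standard error 0.43) with it and -0.11 without it. Npy, Cartpt and 7 of these 11 genes thus had their lowest values on the same array, beside the ventromedial and tanycyte marker values given above.

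**Figure D5:**
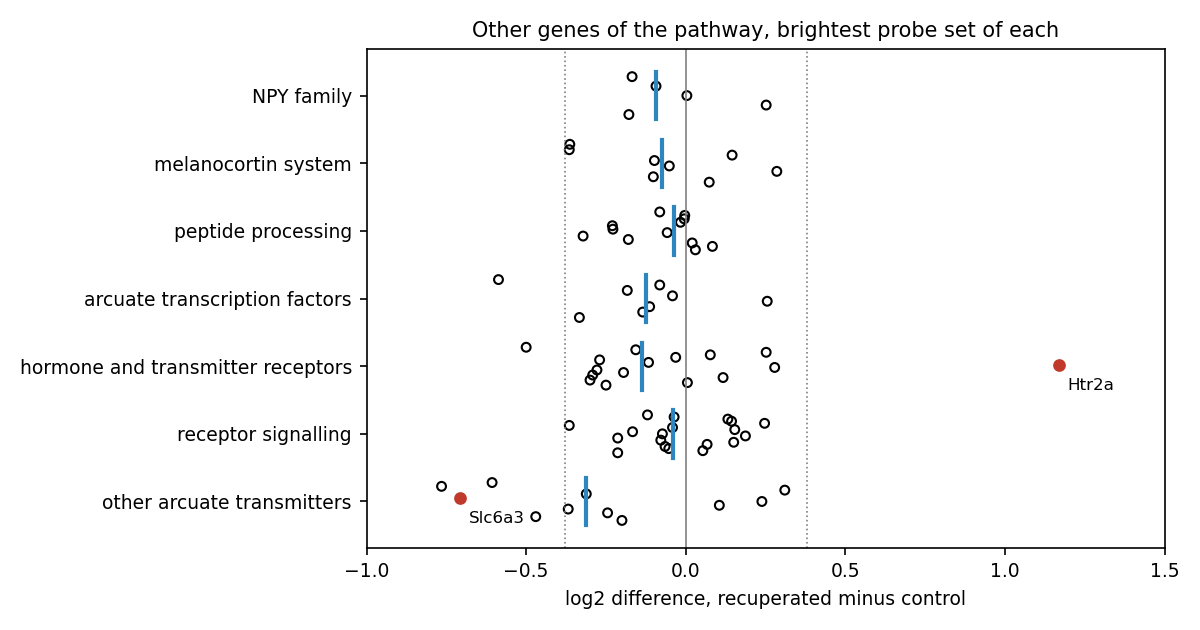
Log2 difference, recuperated minus control, of the 79 measured pathway genes, 1 point per gene by its brightest probe set, in 7 lists, with a blue line for the median of each list and dotted lines at 1.3-fold. Filled red points met 1.3-fold with an unadjusted p under 0.05 from limma, and these are Htr2a and Slc6a3 alone.

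Genes of neurons and astrocytes, and those listed for the ARC, gave signals in the captured tissue, which does not by itself set the ARC apart from its neighbours. All 11 neuronal genes and all 7 astrocyte genes exceeded the median on 6 or more arrays, as did 7 of 8 ARC transcription factors and 9 of 11 other ARC transmitters. So did genes of other cells and nuclei, with 5 of 5 of oligodendrocytes, 5 of 6 of microglia, 6 of 8 of tanycytes and ependyma, 2 of 4 of endothelium, 3 of 4 of the ventromedial nucleus and 5 of 11 of other hypothalamic nuclei. Of 9 pituitary genes 3 did, and of 15 genes of other organs 1 did. These lists passed no adjusted test between groups, with 1 gene higher among those of other hypothalamic nuclei and 1 lower among those of the pituitary at 1.3-fold and an unadjusted p under 0.05.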

How the data were processed

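The arrays were made from laser-captured ARC of 6 control and 6 recuperated rats. The authors deposited log2 expression values for 31099 probe sets on 12 arrays, by RMA, which corrects background, normalizes probe values by quantiles and summarises them by median polish. RMA and Affymetrix Expression Console are named in the submitters' processing notes, with no version stated. GC-RMA and GCOS values, which the paper's methods also describe, were not analysed here. Replicates were not pooled.

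After 57 Affymetrix control probe sets were set aside, the median of each array was subtracted and groups were compared with limma 3.58.1 (lmFit, eBayes) under R 4.3.3, with no covariate and Benjamini-Hochberg adjustment over 31042 probe sets. Intervals are 95% limits of that fit. Levels are printed as deposited. Single values were also compared by exact two-sided permutation tests over 924 arrangements (smallest p 0.00216), and pairs of members by permutation with 100000 resamples, over 21 pairs. Nothing says that arrays share a litter or a batch, and p-values measure the spread between these 12 arrays, whose number limits the precision. Tables and plots were made under Python 3.11.15 with pandas 2.3.3, numpy 2.4.6, matplotlib 3.10.9 and scipy 1.17.1. The fit was tested on simulated data.

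Gene names came from the platform annotation, which gave 1 symbol for 20826 probe sets, several for 436 and none for 9780. The 7 measured members had a RefSeq entry under the same symbol. As the arrays name no genome build, coordinates are given for RefSeq promoter windows alone. The members and gene lists were chosen with earlier results of these data known. Genes named were all probe sets of the members, list genes past 1.3-fold with an unadjusted p under 0.05 or otherwise the 2 with the smallest p of a list, and the genes most like each member by r. Of each other gene, the brightest probe set was used. Dct, Crabp1, Galp, Nr5a1, Gad1, Slc32a1, Acta1, Pnlip, Penk, Pdyn, Tac1, Ghrh, Nts, Gal, Dlx1 and Nkx2-1 lie outside this rule, being picked once their values were known.

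The alternatives tried were to leave array medians in place, to normalize arrays by quantiles, to keep probe sets that exceed the median on 6 or more arrays, to weight arrays by quality, to use animal number as a replicate block, to use the methods' t-test, to leave out each array, to average all probe sets of a gene and to take folds from linear means.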

Additional observations from a re-analysis of the deposited data

Results flagged for a closer look

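In the recuperated group, the Npy value of 7.19 on recuperated array 4 lay far below the next lowest, 10.60, and this gap took up 0.748 of the whole range of the group. The Cartpt value of 11.13 on the same array lay below the next lowest, 12.79, with a gap of 0.892 of the range. These were 2 of the 16 groups of 6 arrays examined for the member probe sets. Chance flags about 1 in 20 groups in this way. Over all probe sets, 8.92% of recuperated and 7.5% of control groups had a value standing apart by the same measure, and in 1.26% it was a low value on recuperated array 4. On this array the ventromedial markers were higher and the tanycyte markers lower than on any other, and their part in both values was not tested.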

How the results depend on the processing

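No member passed adjustment under any alternative. Of 141 alternative values of member probe sets with a test, 137 were negative and 4 positive, 0 met 1.3-fold with an unadjusted p under 0.05, and the smallest adjusted p from limma was 0.937. When single arrays were left out, the difference ran from -1.17 to -0.25 for Npy, -0.37 to -0.001 for Cartpt, -0.21 to -0.07 for Pomc, -0.22 to 0.004 for Npy1r, -0.50 to 0.04 for Npy2r, -0.34 to -0.16 for the main probe set of Npy5r, -0.49 to -0.06 for its other probe set and -0.18 to 0.05 for Mc4r. The direction turned for Npy1r (0.004) and Npy2r (0.039) without recuperated array 4 and for Mc4r without control array 5 (0.011) or recuperated array 5 (0.053). Without recuperated array 4, r turned to -0.037 for Npy and Cartpt, -0.305 for Npy and Npy5r, 0.138 for Npy and Mc4r, -0.006 for Cartpt and Npy5r, -0.108 for Npy1r and Npy2r, -0.266 for Npy1r and Npy5r and -0.206 for Npy2r and Npy5r. The cause was not tested. Without single arrays, an alternative added after seeing the data, r ran from -0.037 to 0.966 for Npy and Cartpt and from -0.831 to -0.638 for Pomc and Mc4r. Folds from linear means gave Npy -0.45 and Cartpt -0.19. The 2 Npy5r probe sets averaged -0.27. Pomc, Npy5r and Mc4r could not be fitted under the filter on dim probe sets, which removed them.

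Over all probe sets, 118 were higher and 150 lower under that filter, which left fewer to test, and 243 and 263 by the methods' t-test. Leaving out single arrays gave 342 to 476 higher and 352 to 622 lower (622 without recuperated array 1) and 0 to 1 adjusted calls, the 1 without recuperated array 2. Lower pathway genes numbered 0 without the subtraction of array medians, 0 under the dim filter, 2 with array weights and 0 to 4 without single arrays (4 without recuperated array 1). Higher ones numbered 1 to 2, with 2 without recuperated array 4. With the animal number as a replicate block, Npy stayed at -0.89 (adjusted p = 0.999 from limma), no member was called, and 452 probe sets were higher and 411 lower. Arrays with the same number correlated between -0.162 and 0.0795 in their deviations. These low values cannot tell whether the numbers pair the animals, since paired animals need not be alike over all probe sets.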

Other observations

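Penk, the enkephalin precursor gene, Pdyn, the dynorphin precursor gene, and Tac1, the substance P precursor gene, were the 3 ARC transmitter genes at their highest on recuperated array 4. Penk read 12.61 there against 10.46 to 11.69 on the other arrays, Pdyn 11.55 against 10.90 to 11.27 and Tac1 8.05 against 6.24 to 7.56. They moved opposite to Npy and Cartpt on that array. Ghrh, which encodes growth hormone-releasing hormone, read 7.45 there against 9.67 to 10.57, Nts, the neurotensin gene, 5.62 against 7.71 to 8.72, and Gal, the galanin gene, 7.87 against 9.03 to 10.08, all lower as Npy was. The transcription factor gene Dlx1 was 7.39 against 8.86 to 9.43, whereas Nkx2-1 was 8.23 against 7.66 to 8.09. These genes were named after their values were seen.

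Npy and Cartpt were not the whole of the change on that array. Of all probe sets, 13.2% were at their lowest and 13.8% at their highest there, against 12.4% and 11.5% on recuperated array 5. The array weights of limma were 0.536 for recuperated array 4 and 0.574 for recuperated array 5, and the highest was 1.80 for recuperated array 6.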
